A study of Mus musculus with 26 samples.

Results

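The adrenomedullin axis described here comprised 5 of the 55416 genes counted: Adm, which encodes the peptide hormone adrenomedullin, Calcrl, which encodes the calcitonin receptor-like receptor, and Ramp1, Ramp2 and Ramp3, which encode the receptor activity-modifying proteins. The genes were matched by symbol and were selected on their measured levels and propranolol changes in these libraries. Their values are therefore given as a description without a test. Polyadenylated RNA was sequenced from C57BL/6 mice bearing lung metastases after intravenous injection of B16F10 cells, an established line from a mouse melanoma, so all 6 groups shared the tumour. The propranolol groups were whole lung (5 libraries), cells labelled lung monocytes and isolated by flow sorting (4 libraries), and lung CD4 T cells isolated with magnetic beads (4 libraries), and each had an untreated group of the same size. Propranolol blocks β-adrenoceptors. The labels give no age, sex, dose or duration, no vehicle for the untreated mice, and do not tie each library to an animal of its own, so p-values below measure the spread between these libraries, which may be technical.

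Calcrl is a G protein-coupled receptor that reaches the cell surface as a complex with a RAMP. With RAMP1 the complex is the receptor for calcitonin gene-related peptide, and with RAMP2 or RAMP3 it is a receptor for adrenomedullin. The complexes couple to the stimulatory G protein and raise cAMP. Adrenomedullin dilates blood vessels, is needed with Calcrl and Ramp2 for the development of blood and lymphatic vessels, and is induced by hypoxia. In lung, endothelium is a main site of Calcrl and Ramp2 expression.

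Promoter sequences from RefSeq (GRCm38.p6) were matched for 4 of the 5 genes, each window running from 250 bases before to 50 bases after the annotated start. Those of Adm and Ramp3 are shown because these genes had the largest propranolol changes in whole lung and in CD4 T cells. Capitals mark matches to the hypoxia response core, searched as ACGTG and GCGTG on both strands, so that CACGC is GCGTG on the other strand. The Adm window is chr7:110627407-110627706 (plus strand) and the Ramp3 window is chr11:6658283-6658582 (plus strand).
Adm: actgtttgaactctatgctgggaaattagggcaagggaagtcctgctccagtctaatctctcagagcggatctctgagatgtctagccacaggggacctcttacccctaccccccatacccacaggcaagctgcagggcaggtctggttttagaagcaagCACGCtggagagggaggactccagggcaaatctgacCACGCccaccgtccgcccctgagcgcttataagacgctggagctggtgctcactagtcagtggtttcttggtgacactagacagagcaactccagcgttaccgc
Ramp3: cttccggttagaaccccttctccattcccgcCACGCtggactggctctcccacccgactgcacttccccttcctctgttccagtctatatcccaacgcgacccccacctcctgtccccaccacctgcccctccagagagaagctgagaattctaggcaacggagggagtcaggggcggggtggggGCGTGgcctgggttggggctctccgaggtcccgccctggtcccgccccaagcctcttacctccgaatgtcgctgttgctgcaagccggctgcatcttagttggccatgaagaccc
Adm held 2 matches, beginning at positions -90 and -54 relative to the start, both on the minus strand, and Ramp3 held 2, at -219 (minus strand) and -65 (plus strand). A single match lay at 21 bases after the start of Calcrl, and Ramp1 held none. Of 32851 promoter windows, 43.8% held at least 1 match and 20.6% held 2 or more. The core of the cAMP response element, searched as TGACG on both strands and present in 20.8% of windows, had 1 match in the Ramp1 window, at 10 bases after the start on the minus strand, and none in those of Adm, Ramp3 and Calcrl. These matches describe the letters of the windows and are not evidence of binding.

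The authors' counts ran from 29.7 M to 43.4 M per library in propranolol lung and from 33.2 M to 47.6 M in untreated lung. The propranolol monocyte libraries had 36.3 M to 46.4 M and the untreated ones 36.4 M to 48.3 M, and the propranolol CD4 T cell libraries had 27.7 M to 42.5 M and the untreated ones 17.6 M to 35.6 M. Levels are given as scaled CPM, the library-size-normalised count (CPM) after TMM scaling among the libraries of 1 kind of material. The CD4 T cell libraries were in a separate table, so levels set across kinds of material were not tested. The libraries labelled monocytes went against that label in part: beside Csf1r, a receptor of monocytes and macrophages, at 585 ± 85.9 and 466 ± 59.4 scaled CPM, they held Cdh5, the endothelial cadherin, at 1238 ± 26.3 and 1708 ± 83.8, and Tyrp1, a melanocyte pigment enzyme, at 1344 ± 265 and 1048 ± 86.2 (propranolol and untreated, SD, n = 4 each). In the CD4 T cell libraries Cdh5 was near 0, at 1.03 ± 0.281 and 0.678 ± 0.207 scaled CPM, and Cd3e, a T cell receptor subunit, was at 327 ± 39.3 and 254 ± 8.34. Within each monocyte group, replicates 1 and 2 and replicates 3 and 4 were close pairs, but no 2 libraries agreed within sampling noise. In these bulk libraries fewer cells of a type and less RNA per cell cannot be told apart.

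The 5 genes occupied different material. Calcrl averaged 936 ± 20.2 scaled CPM in propranolol and 1503 ± 78.2 in untreated monocyte libraries, 769 ± 155 in propranolol and 399 ± 181 in untreated lung, and 36.1 ± 2.87 in propranolol and 33.1 ± 2.80 in untreated CD4 T cells. In the order of these levels, the neighbours whose ranges overlapped were propranolol monocyte libraries with propranolol lung and the 2 CD4 T cell groups. Ramp2 followed the same order outside CD4 T cells, with 226 ± 9.29 in propranolol and 353 ± 8.05 in untreated monocyte libraries and 198 ± 36.7 in propranolol and 108 ± 30.7 in untreated lung, and with overlap between propranolol monocyte libraries and propranolol lung. Among CD4 T cell libraries Ramp2 was at 0 counts in 5 of 8 libraries and reached at most 6 counts.

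Ramp1 was spread over all the material within a narrow range, at 19.5 ± 2.73 scaled CPM in propranolol and 34.0 ± 2.69 in untreated CD4 T cells, 29.8 ± 9.98 in propranolol and 19.9 ± 4.09 in untreated monocyte libraries, and 18.9 ± 2.87 in propranolol and 10.3 ± 2.95 in untreated lung. Placed in order, every neighbouring pair of these groups overlapped. Ramp3 had its highest level in propranolol CD4 T cells, at 598 ± 25.7, against 4.35 ± 0.855 in untreated CD4 T cells. It was at 32.1 ± 2.29 in propranolol and 27.2 ± 2.06 in untreated monocyte libraries, and at 2.53 ± 0.538 in propranolol and 3.21 ± 0.450 in untreated lung. Untreated CD4 T cells overlapped untreated lung, which overlapped propranolol lung, and the other neighbours did not overlap. Adm was at 5.16 ± 0.931 in propranolol and 23.6 ± 7.14 in untreated lung, 17.2 ± 1.46 in propranolol and 19.3 ± 3.29 in untreated monocyte libraries, and 3.87 ± 0.934 in propranolol and 0.976 ± 0.0618 in untreated CD4 T cells. Untreated lung overlapped untreated monocyte libraries, these overlapped propranolol monocyte libraries, and propranolol lung overlapped propranolol CD4 T cells. These are means ± SD over 5 lung libraries or 4 libraries of the other groups.

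**Figure D1:**
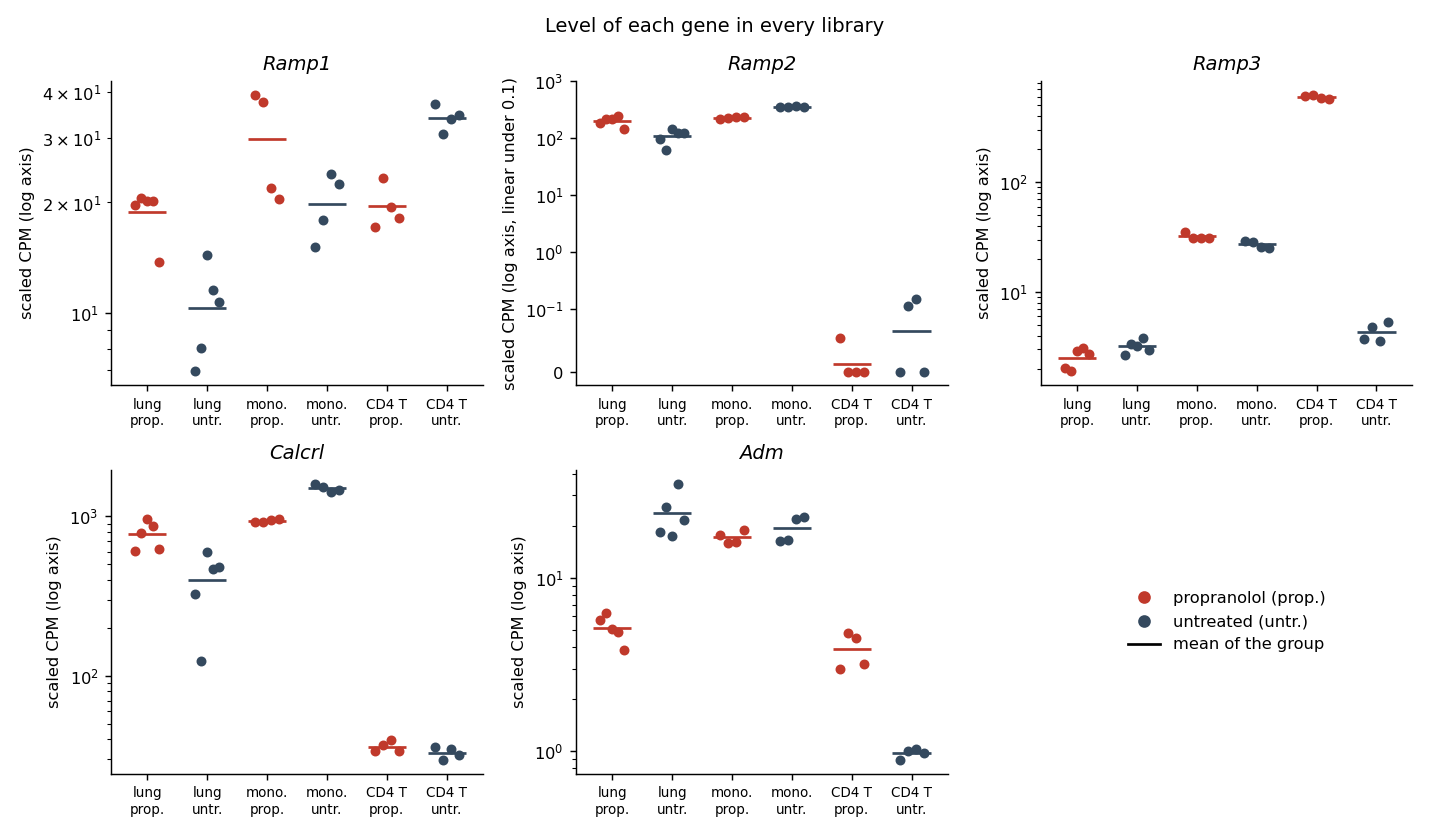
Level of the 5 genes in every library, in scaled CPM on log axes (for Ramp2 linear under 0.1), with propranolol libraries in red, untreated libraries in dark blue and a line at each group's mean. The 4 propranolol CD4 T cell libraries lie between 568 and 625 scaled CPM for Ramp3, against 3.57 to 5.36 in the 4 untreated ones.

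Adm, the ligand, was lower in propranolol lung and higher in propranolol CD4 T cells than in their untreated groups. In lung it had 5.75, 6.29, 5.06, 4.85 and 3.84 scaled CPM in the 5 propranolol libraries, against 18.4, 25.7, 17.4, 35.0 and 21.7 in the 5 untreated libraries. The highest propranolol lung lay below the lowest untreated lung, and the log2 change was -2.20 ± 0.21 (SE), a 4.59-fold lower level. The CD4 T cell libraries had 2.98, 4.82, 4.52 and 3.17 scaled CPM with propranolol, against 0.891, 1.01, 1.03 and 0.974 in untreated cells, or 97 to 133 counts against 18 to 42. All 4 propranolol libraries were higher, with a log2 change of 1.97 ± 0.25 from a low level. The 10 monocyte markers also rose in these libraries, summing to 1027 to 1168 scaled CPM with propranolol and 351 to 449 untreated. The 6 B cell markers summed to 443 to 593 and 133 to 170. Their part in the Adm level of the CD4 T cell libraries was not tested. Monocyte libraries had 17.8, 15.8, 16.1 and 18.9 with propranolol and 16.3, 16.6, 21.7 and 22.5 untreated, and the groups overlapped (-0.17 ± 0.12). A gene annotated antisense to Adm, Gm28863, had at most 0.280 scaled CPM in propranolol and 0.861 in untreated lung and no count in CD4 T cells. The strand setting and the handling of reads shared by both genes are not stated, so the Adm values are uncertain to that extent.

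Calcrl, the receptor, was higher in propranolol lung and lower in the propranolol monocyte libraries. Lung had 607, 790, 963, 867 and 621 scaled CPM with propranolol, against 325, 123, 595, 470.4 and 481 untreated. Every propranolol lung exceeded every untreated lung, although the lowest propranolol library, at 607, lay just over the highest untreated one, at 595, and the untreated values ranged widely, with 123 in replicate 2. The log2 change was 0.95 ± 0.33, and leaving out 1 library at a time gave 0.70 to 1.13. For Calcrl the monocyte libraries had 916, 921, 949 and 956 scaled CPM with propranolol, against 1604, 1524, 1428 and 1457 untreated, without overlap (-0.68 ± 0.04). CD4 T cells had 33.8, 36.7, 39.9 and 33.9 with propranolol and 35.9, 29.8, 34.7 and 31.8 untreated, and the groups overlapped. The log2 change there was 0.13 ± 0.09, and -0.26 where counts were scaled to library totals alone.

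Ramp2, the partner that makes Calcrl an adrenomedullin receptor in vessels, went the same way as Calcrl in both kinds of material. Lung had 180.1, 214, 212, 239 and 144 scaled CPM with propranolol, against 95.5, 62.0, 142, 120.4 and 122 untreated, without overlap but with only 144 against 142 between the nearest libraries (0.87 ± 0.20). The monocyte libraries had 215, 222, 231 and 236 with propranolol, against 348, 346, 363 and 357 untreated, without overlap (-0.64 ± 0.04). Ramp2 in CD4 T cells had 2, 0, 0 and 0 counts with propranolol and 0, 4, 6 and 0 counts untreated. It was not tested there and no fold is given, since a count of 0 allows up to 3 counts, or 0.0738 to 0.149 scaled CPM. Ramp2 overlaps Vps25 on the same strand in the GRCm38 annotation, Vps25 had 0.169 to 1.04 scaled CPM over all libraries, and the handling of reads shared by both genes is not stated, so both values are uncertain to that extent.

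Endothelial markers moved with Calcrl and Ramp2, and so did markers of some other lung cells. Of the 15 endothelium markers 14 rose and 0 fell in propranolol lung, and 0 rose and 14 fell in the propranolol monocyte libraries (edgeR, adjusted p under 0.05), with summed levels of 4047 to 6750 against 2558 to 4093 scaled CPM in lung and 6948 to 7051 against 9035 to 9561 in the monocyte libraries. Per 1000 counts of these markers, Ramp2 had 33.6 to 35.6 counts in propranolol lung and 24.2 to 37.6 in untreated lung, and Calcrl had 113 to 155 and 48.2 to 147, so that both ratios overlapped between the groups. In the monocyte libraries the ratios did not overlap: Ramp2 had 31.0 to 33.5 counts per 1000 with propranolol and 36.4 to 39.5 untreated, and Calcrl had 132 to 136 and 155 to 168. Of all tested genes, 35.5% rose and 35.3% fell in lung, and 14.3% rose and 16.1% fell in the monocyte libraries. Alveolar type 1 (7 of 7), alveolar type 2 (8 of 8) and smooth muscle and pericyte markers (7 of 10, with 1 lower) also rose in lung. In the monocyte libraries 6, 5 and 5 of these fell and 0 rose. Other lists did not follow in both. Of 9 fibroblast markers 4 rose and 4 fell in lung, and 2 rose and 6 fell in the monocyte libraries. Of 6 lymphatic endothelium markers 5 rose and 1 fell in lung, and 2 rose and 2 fell in the monocyte libraries. All 6 B cell markers rose in both, and of 10 monocyte markers 8 rose in lung and 4 in the monocyte libraries, with 0 lower. The melanocyte markers fell in lung (10 of 10, 899 to 8130 against 14148 to 22367 scaled CPM). Scaling the lung libraries on the endothelium markers gave a log2 change of 0.16 for Calcrl and 0.04 for Ramp2. Endothelium scaling of the monocyte libraries gave -0.27 for Calcrl and -0.23 for Ramp2. With the melanocyte level as a covariate the lung changes were 0.44 ± 0.53 for Calcrl, 0.40 ± 0.30 for Ramp2 and -2.19 ± 0.38 for Adm (SE). The melanocyte ranges of the 2 lung groups did not overlap, so here and below this covariate is hard to tell apart from the treatment.

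**Figure D2:**
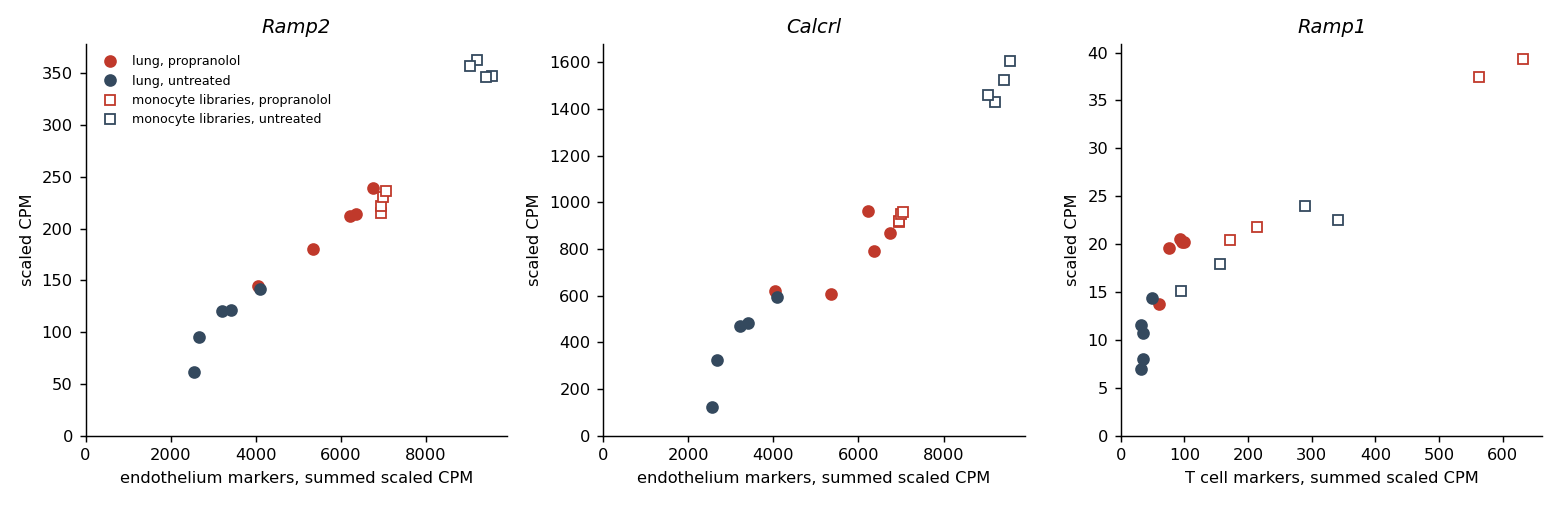
Ramp2 and Calcrl against the summed endothelium markers and Ramp1 against the summed T cell markers, all in scaled CPM, with 1 point per library of whole lung (filled circles) and of the monocyte libraries (open squares), propranolol in red and untreated in dark blue. In each kind of material the group with more endothelium marker RNA had more Ramp2 and Calcrl, but libraries within a group did not always follow that order. The 2 propranolol monocyte libraries with the highest Ramp1 had 563 and 632 scaled CPM of T cell markers.

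Ramp1, the partner for the receptor of calcitonin gene-related peptide, was higher in propranolol lung, at 19.6, 20.5, 20.2, 20.2 and 13.8 scaled CPM, against 6.94, 8.02, 14.4, 11.5 and 10.7 in untreated lung. The groups overlapped by 1 library, the propranolol lung at 13.8, and the log2 change was 0.87 ± 0.19. The T cell markers summed to 59.997 to 99.1 scaled CPM in propranolol lung and 31.2 to 49.9 in untreated lung, and all 8 rose, where 35.5% of all tested genes did. All 6 B cell markers and 14 of the 15 endothelium markers rose there as well. Per 1000 counts of the endothelium markers, Ramp1 had 2.99 to 3.67 counts in propranolol and 2.60 to 3.60 in untreated lung, with overlap. Endothelium scaling of lung gave a log2 change of 0.05 for Ramp1. In the monocyte libraries Ramp1 had 39.3, 37.4, 21.8 and 20.5 with propranolol, against 15.1, 17.9, 24.0 and 22.5 untreated, where the T cell markers summed to 632, 563, 215 and 172 with propranolol and to 94.3, 155, 290.1 and 341 untreated. Both sets of values ranked the 8 libraries in nearly the same order, and the groups overlapped in each. The log2 change of Ramp1 was 0.58 ± 0.22 in the monocyte libraries, and 0.13 ± 0.08 with the T cell level as a covariate. In CD4 T cells the direction was the other one: 17.1, 23.4, 19.4 and 18.2 scaled CPM with propranolol, against 37.2, 30.7, 33.8 and 34.6 untreated, without overlap (-0.80 ± 0.11). The T cell markers there summed to 3727 to 4096 with propranolol and 2739 to 2788 untreated.

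Ramp3, the other adrenomedullin receptor partner, had the largest difference of the 5 genes. In CD4 T cells it had 613, 625, 585 and 568 scaled CPM with propranolol (15033 to 22821 counts), against 3.71, 4.75, 3.57 and 5.36 untreated (75 to 198 counts). No library lay between the groups, and the log2 change was 7.09 ± 0.13, a 136-fold higher level. Leaving out 1 library at a time gave 7.0 to 7.21. Other cell markers moved with it: in the propranolol CD4 T cell libraries the 6 B cell markers summed to 443 to 593 scaled CPM, against 133 to 170 untreated, and the 10 monocyte markers to 1027 to 1168, against 351 to 449. The libraries labelled monocytes, with 4105 to 6003 scaled CPM of those monocyte markers, held at most 35.6 scaled CPM of Ramp3. The part of the monocyte and B cell markers in the Ramp3 level of the CD4 T cell libraries was not tested. Gm11978, annotated antisense to Ramp3, had 0.332 to 1.66 scaled CPM in propranolol and at most 0.222 in untreated CD4 T cells.

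In the other material the Ramp3 differences were smaller. The monocyte libraries had 35.6, 31.2, 31.0 and 30.8 scaled CPM with propranolol, against 29.3, 28.5, 25.8 and 25.1 untreated, without overlap (0.24 ± 0.07). Lung had 2.02, 1.90, 2.91, 3.09 and 2.71 with propranolol and 2.64, 3.39, 3.24, 3.83 and 2.96 untreated, with overlap (-0.34 ± 0.18). Per 1000 counts of the endothelium markers, Ramp3 had 0.298 to 0.670 counts in propranolol and 0.792 to 1.33 in untreated lung, and 4.37 to 5.11 in propranolol and 2.77 to 3.07 in untreated monocyte libraries, without overlap in either. Endothelium scaling gave a log2 change of -1.18 in lung and 0.66 in the monocyte libraries. The lung values rest on 60 to 141 counts per propranolol library and 92 to 173 per untreated library.

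Scaling moved the level of all genes together: the median log2 change of all genes in lung was 0.03 with TMM, -0.82 with endothelium and -0.75 with resident cell scaling, in the monocyte libraries 0.02 with TMM and 0.44 with endothelium scaling, and in CD4 T cells -0.04 with TMM, 0.50 with endothelium scaling and -0.42 with library totals alone. A scaling shifts all genes by nearly the same amount, so a gene's distance from that median was fixed in advance and is no check of its change. In lung that distance was 0.91 to 0.98 for Calcrl, 0.84 to 0.86 for Ramp2 and -2.26 to -2.22 for Adm. It was -0.71 for Calcrl in the monocyte libraries and 7.13 for Ramp3 in CD4 T cells. The lung change itself went with endothelium scaling from 0.95 to 0.16 for Calcrl and from 0.87 to 0.04 for Ramp2.

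**Figure D3:**
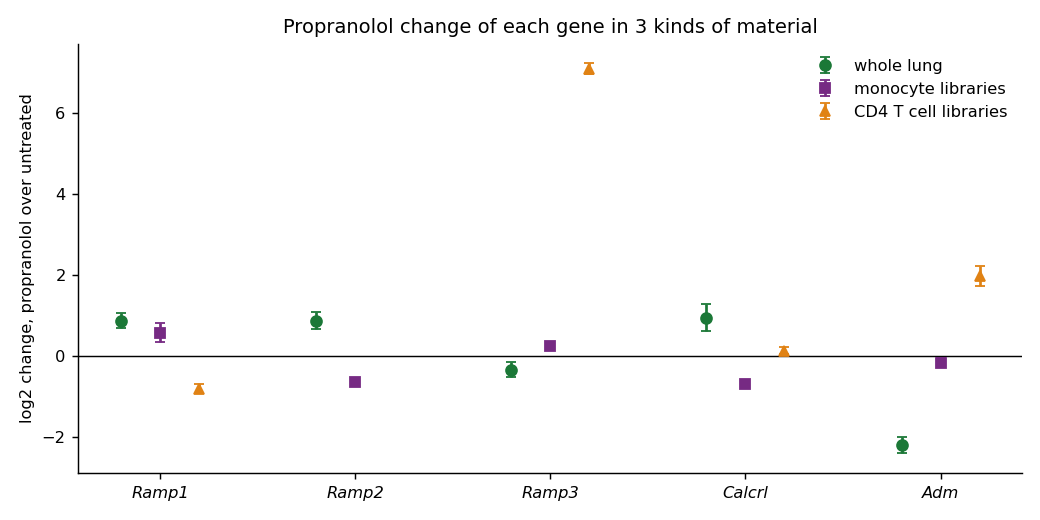
Log2 change of each gene, propranolol over untreated, with its SE, in whole lung (circles), monocyte libraries (squares) and CD4 T cell libraries (triangles). Ramp2 and Calcrl lie above 0 in lung and below 0 in the monocyte libraries, Adm lies at -2.20 in lung and 1.97 in CD4 T cells, and Ramp3 lies at 7.09 in CD4 T cells. Ramp2 was not tested in CD4 T cells.

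For orientation, 4 of 5 genes passed an adjusted p of 0.05 in lung (3 higher, 1 lower), where 70.8% of 18639 genes tested passed (35.5% higher, 35.3% lower). For the monocyte libraries 3 of 5 passed (1 higher, 2 lower), where 30.5% of 18236 genes passed (14.3% higher, 16.1% lower), and in CD4 T cells 3 of the 4 genes tested passed (2 higher, 1 lower), where 60.0% of 16550 genes passed (30.1% higher, 29.9% lower). The genes were selected on these same contrasts, so nothing is read from the counts.

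The share of each RAMP transcript, taken per kb of annotated exon (GENCODE M21 lengths on GRCm38, while the counts were on GRCm39), set the kinds of material apart. Ramp2 made up a median of 87.9% of the summed RAMP level per kb in propranolol lung and 85.8% in untreated lung, Ramp1 9.17% and 8.87%, and Ramp3 2.75% and 5.77%. For the monocyte libraries the Ramp2 share was 62.7 to 71.1% with propranolol, below the 79.8 to 80.9% of the untreated libraries, while the Ramp3 share was 22.1 to 24.8%, above 13.6 to 16.2%. Of CD4 T cells, the propranolol libraries held 98.3 to 98.7% Ramp3 and 1.26 to 1.68% Ramp1, whereas the untreated libraries held 17.9 to 25.3% Ramp3 and 74.5 to 82.1% Ramp1. Set against the receptor itself, Ramp3 per kb was 58.8 ± 5.10 times the Calcrl level per kb in propranolol CD4 T cells and 0.472 ± 0.125 times in untreated ones (SD, n = 4 each), and Ramp1 was 0.874 ± 0.108 and 1.66 ± 0.0744 times the Calcrl level. These ratios are of RNA and do not give the amounts of the receptor complexes.

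**Figure D4:**
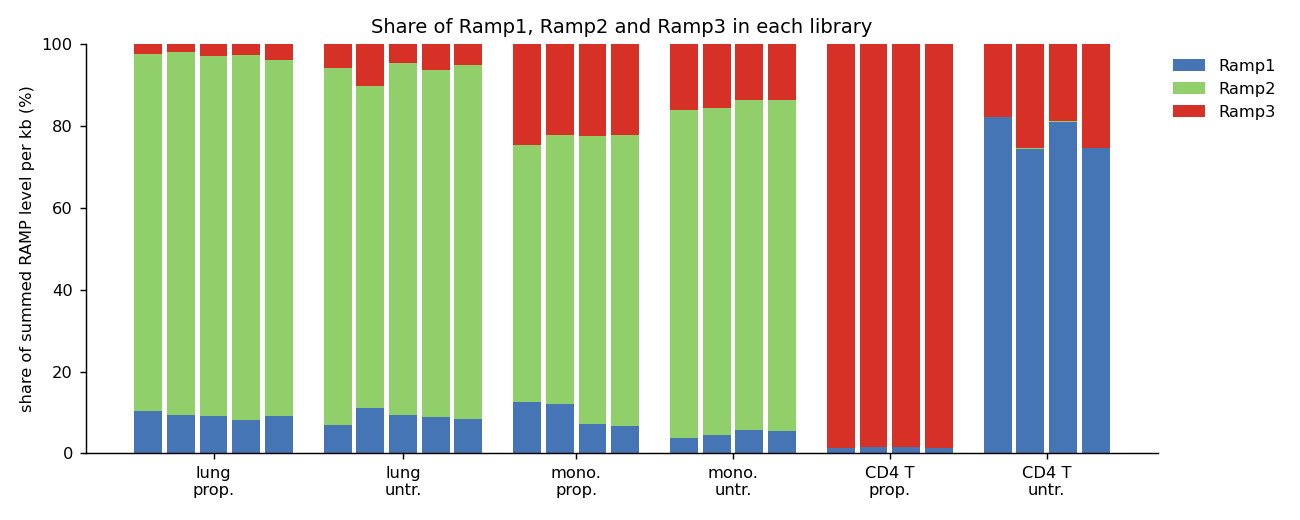
Share of Ramp1, Ramp2 and Ramp3 in the summed RAMP level per kb (%), 1 bar per library, propranolol left of untreated for each kind of material. Ramp2 fills most of each lung and monocyte bar, Ramp1 most of each untreated CD4 T cell bar, and Ramp3 over 98% of each propranolol CD4 T cell bar.

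The other genes of the calcitonin family and of RAMP partners were taken from a list of 30. In lung 19 of 23 tested genes were called, 13 higher and 6 lower (edgeR, adjusted p under 0.05), with a median log2 change of 0.65 against 0.03 for all genes. In the monocyte libraries 9 of 22 were called, 1 higher and 8 lower (median -0.06 against 0.02), and in CD4 T cells 12 of 17, 6 higher and 6 lower (median -0.13 against -0.04). The share of all tested genes called was 70.8% for lung, 30.5% for monocyte libraries and 60.0% for CD4 T cells, so the list's totals lay near the background. By direction, 35.5% of all genes were higher in lung and 16.1% lower in the monocyte libraries. The list held larger shares of each, as the endothelium markers did. Whether the list differed from all genes was not tested. The counts for lung and monocyte libraries changed with the processing. With the melanocyte level as a covariate 1 gene was called in lung, Arrb2, and with close monocyte libraries summed 5 were called, all lower. Calls over all genes also fell under both settings, as given in the last section. Scaled on the endothelium markers, 2 genes were higher and 10 lower in lung, and 16 higher and 2 lower in the monocyte libraries.

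Among the ligand genes, Calca, which encodes calcitonin and an isoform of calcitonin gene-related peptide that the counts do not separate, had 20.8, 5.07, 13.2 and 14.7 scaled CPM in propranolol CD4 T cells (122 to 774 counts) and 0 counts in each of the 4 untreated libraries. Against a floor of 3 counts per library, the level was at least 34.1-fold higher, and the test passed (edgeR, adjusted p = 6.98e-06). Iapp, the amylin gene, had no count in the CD4 T cell libraries, and Adm2 was too low to be tested in any material. Calca had 0.745 scaled CPM in propranolol and 0.372 in untreated monocyte libraries and did not pass there (edgeR, adjusted p = 0.142).

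Of the receptors, Gpr182, an endothelial receptor that scavenges chemokines, rose in lung to 66.8 ± 12.3 scaled CPM with propranolol, against 26.2 ± 10.8 untreated (log2 change 1.35 ± 0.29, edgeR adjusted p = 0.00182), and fell in the monocyte libraries to 52.3 ± 2.20, against 85.3 ± 3.93 (-0.71 ± 0.05, adjusted p = 2.28e-06). Vipr2, a receptor of vasoactive intestinal peptide that associates with RAMPs, had 19.5 ± 3.86 and 10.3 ± 3.09 scaled CPM in propranolol and untreated lung (0.92 ± 0.22, edgeR adjusted p = 0.00324) and 8.04 ± 0.822 and 16.1 ± 2.27 in the monocyte libraries (-1.0 ± 0.11, adjusted p = 7.28e-05). Both therefore changed in the direction of Ramp2 and Calcrl in each of these materials, and the endothelium markers moved with them. With endothelium scaling Gpr182 still passed in lung (0.54, edgeR adjusted p = 0.0395) and in the monocyte libraries (-0.29, adjusted p = 0.000660), and Vipr2 passed in the monocyte libraries (-0.59, adjusted p = 0.00133) but not in lung (0.09, adjusted p = 0.666). The lung calls of Gpr182 and Vipr2 did not hold with the melanocyte level as a covariate (edgeR, adjusted p = 0.165 and 0.368). Vipr1, the other receptor of that peptide, fell in CD4 T cells to 26.9 ± 2.34 scaled CPM with propranolol, against 101 ± 4.36 untreated (-1.91 ± 0.08, edgeR adjusted p = 2.02e-09). Vipr2 fell there by 2.01 ± 0.56 on the log2 scale (edgeR adjusted p = 0.00884), on 2 to 18 counts per library with propranolol and 27 to 50 untreated.

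Calcr, the calcitonin receptor, which forms amylin receptors with RAMPs, had 0.342, 0.380, 0.991, 1.73 and 0.637 scaled CPM in propranolol lung (11 to 79 counts), against 0.115, 0.196, 0.108, 0.133 and 0.120 in untreated lung (4 to 6 counts). All propranolol libraries were higher, and its log2 change of 2.61 ± 0.49 was the largest of the list in lung (edgeR adjusted p = 0.000868). It passed with endothelium scaling (1.72, adjusted p = 0.00629) but not with the melanocyte level as a covariate (1.06, adjusted p = 0.194).

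Enzymes that process or clear the peptides changed as well. Furin, a protease that cleaves prohormones, rose in CD4 T cells to 345 ± 44.9 scaled CPM with propranolol, against 79.7 ± 3.82 untreated (2.11 ± 0.09, edgeR adjusted p = 3.32e-09), whereas its lung levels of 211 ± 21.9 and 234 ± 44.6 did not pass (adjusted p = 0.300). Pam, which amidates adrenomedullin to its active form, fell in the monocyte libraries to 204 ± 2.55, against 273 ± 4.81 (-0.42 ± 0.03, edgeR adjusted p = 4.89e-06). Mme, the peptidase neprilysin, also fell there, to 48.6 ± 2.89 against 68.8 ± 4.06 (-0.50 ± 0.06), as did Ece1, an endothelin-converting protease, to 533 ± 5.91 against 654 ± 25.9 (-0.29 ± 0.04), although Ece1 was higher by 0.12 when scaled on the endothelium markers. With the close monocyte libraries summed, Ece1 was not called, whereas Pam and Mme were. With endothelium scaling Pam and Mme no longer passed (edgeR, adjusted p = 0.850 and 0.255).

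Pam, Mme and Ece1 were higher in lung. Scaled on the endothelium or the resident cell markers, Pam was lower, and Mme and Ece1 did not pass. Pam had 275 ± 38.8 scaled CPM with propranolol and 208 ± 33.5 untreated (0.40 ± 0.13, edgeR adjusted p = 0.0156), but -0.44 with endothelium and -0.37 with resident cell scaling, both past the threshold. Mme had 138 ± 23.0 and 81.0 ± 15.3 (0.77 ± 0.14, edgeR adjusted p = 0.000857) and Ece1 490.05 ± 95.9 and 297 ± 59.5 (0.72 ± 0.17, adjusted p = 0.00262), and with endothelium scaling these were -0.08 and -0.14 and did not pass. With the melanocyte level as a covariate none of the 3 passed (edgeR, adjusted p = 0.928 for Pam, 0.252 for Mme and 0.536 for Ece1).

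Among coupling genes, Arrb1 and Arrb2, the β-arrestins that desensitise G protein-coupled receptors, rose in lung, but neither passed when scaled on the endothelium or the resident cell markers. Arrb2 had 39.0 ± 3.56 scaled CPM with propranolol and 24.8 ± 1.76 untreated (0.65 ± 0.08, edgeR adjusted p = 0.000131). Its change was -0.20 with endothelium and -0.12 with resident cell scaling (edgeR, adjusted p = 0.277 and 0.469). Arrb1 had 379 ± 58.9 and 208 ± 31.4 (0.87 ± 0.13, edgeR adjusted p = 0.000269), and 0.01 with endothelium scaling (adjusted p = 0.963). In the monocyte libraries it fell to 293 ± 6.01, against 384 ± 21.9 (-0.39 ± 0.04), a change of 0.02 with endothelium scaling. Arrb2 was lower in CD4 T cells, at 77.5 ± 16.7 scaled CPM with propranolol and 149.5 ± 5.94 untreated (-0.95 ± 0.13, edgeR adjusted p = 5.34e-05), and -0.41 with endothelium scaling (adjusted p = 0.00670). Gnas, the stimulatory G protein α subunit, rose in CD4 T cells to 54.8 ± 10.5, against 28.0 ± 1.34 (0.97 ± 0.13). In lung Gnas fell to 60.7 ± 7.18, against 87.4 ± 6.36 (-0.53 ± 0.09).

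**Figure D5:**
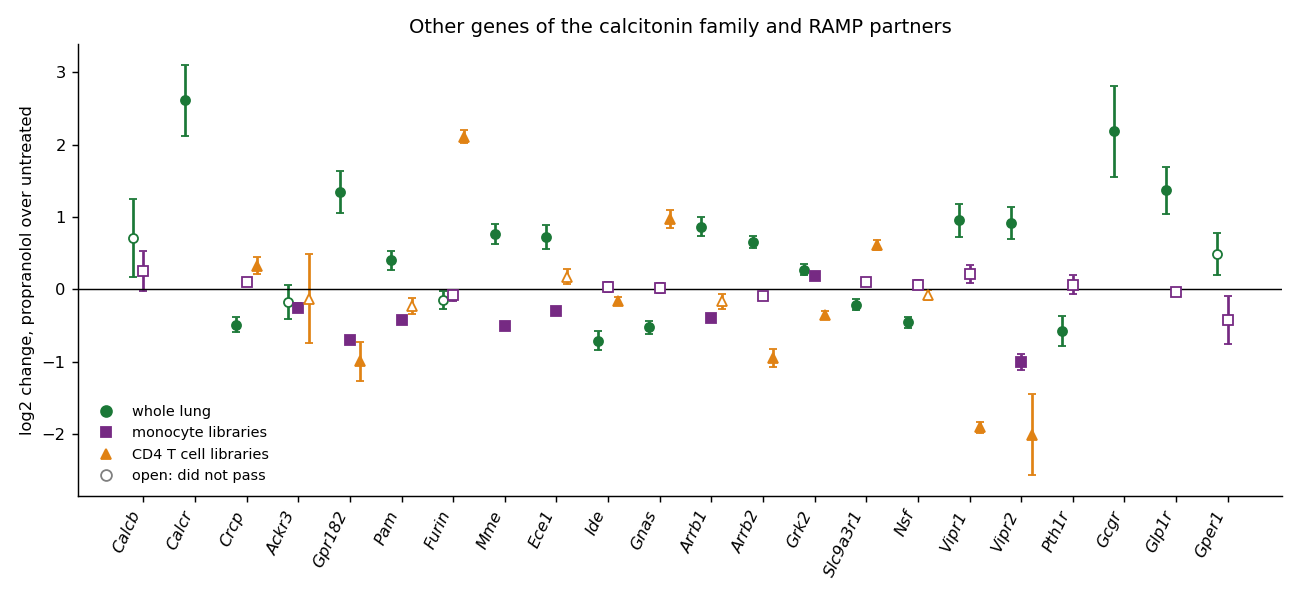
Log2 change of the tested genes of the calcitonin family and RAMP partner list, propranolol over untreated, with SE, in whole lung (circles), monocyte libraries (squares) and CD4 T cell libraries (triangles). Filled points passed an adjusted p of 0.05 in edgeR, Calca is left out because its untreated CD4 T cell libraries had 0 counts, 1 other gene is not shown, and in CD4 T cells Furin lies at 2.11, Vipr1 at -1.91 and Vipr2 at -2.01.

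The difference of the propranolol change between kinds of material was tested for the list as an interaction. Between the monocyte libraries and lung it passed for 15 of 25 genes, 4 positive and 11 negative, where 57.4% of all genes tested passed. Gpr182 (-2.18 ± 0.34) and Vipr2 (-2.04 ± 0.28) were among the 11. Between CD4 T cells and lung it passed for 16 of 24 genes, 6 positive and 10 negative, where 56.2% of all genes passed, with Furin at 2.09 ± 0.18 and Vipr1 at -3.03 ± 0.27. The 2 comparisons share the lung libraries. The shares of the list stood near those of all genes, and nothing particular to the list is read from them.

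Hypoxia response genes were set beside Adm, which is one of their number in many cell types. All 12 on the list passed in lung, 10 lower and 2 higher, where 70.8% of all genes did (35.3% lower and 35.5% higher). Their median log2 change was -1.74, where Adm had -2.20. Car9, a carbonic anhydrase, fell to 2.72 ± 0.465 scaled CPM with propranolol, against 28.9 ± 13.6 untreated (-3.41 ± 0.31, edgeR adjusted p = 5.10e-05), and Ldha, a lactate dehydrogenase, fell to 291 ± 87.9, against 1413 ± 389 (-2.28 ± 0.25). Slc2a1, a glucose transporter, fell by 2.43 ± 0.30 and Bnip3, a mitophagy receptor, by 2.0 ± 0.23 on the log2 scale. Vegfa, the vascular growth factor, rose to 821 ± 147, against 405 ± 63.9 (1.02 ± 0.15, edgeR adjusted p = 0.000206, but 0.299 with endothelium scaling). Pfkfb3, a regulator of glycolysis, rose as well (0.55 ± 0.08). It had -0.31 with endothelium and -0.24 with resident cell scaling and did not pass there (edgeR, adjusted p = 0.0886 and 0.157). With the melanocyte level as a covariate 7 of the 12 were called, all lower. Far fewer of all genes were called with that covariate as well, and their number is given in the last section.

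In CD4 T cells, where Adm was higher, 7 of the 12 hypoxia genes were higher and 3 lower (median 0.71). Of all genes, 60.0% passed there (30.1% higher and 29.9% lower). Vegfa rose to 42.9 ± 6.47 scaled CPM with propranolol, against 4.16 ± 0.674 untreated (3.37 ± 0.15, edgeR adjusted p = 5.01e-09), Ndrg1, a stress-response gene, to 90.4 ± 6.02, against 15.4 ± 1.32 (2.55 ± 0.09), and Egln3, an oxygen-sensing hydroxylase, to 22 ± 1.32, against 9.16 ± 1.27 (1.26 ± 0.12). Pdk1, a kinase that restrains pyruvate oxidation, fell to 67.0 ± 3.42, against 224 ± 2.93 (-1.74 ± 0.06, edgeR adjusted p = 3.91e-10). Ankrd37, also of the list, fell (-1.21 ± 0.25, edgeR adjusted p = 0.00141), as did Car9 (-1.22 ± 0.42, adjusted p = 0.0272), whose groups overlapped. P4ha1, a collagen prolyl hydroxylase subunit, and Pfkfb3 rose by log2 values of 0.90 ± 0.07 and 0.72 ± 0.07. In the monocyte libraries, where the Adm groups overlapped, 6 of the 12 passed, 3 in each direction (median 0.02), where 30.5% of all genes passed, with log2 changes of -0.81 ± 0.05 for P4ha1 and -0.55 ± 0.04 for Vegfa. The change of the hypoxia genes differed between the monocyte libraries and lung for 11 of 12, where 57.4% of all genes differed, and between CD4 T cells and lung for 10 of 12, where 56.2% did.

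The genes whose levels were most like each of the 5 over the 26 libraries were ranked by Pearson's r of log2(CPM + 1) among 12350 genes, as a description in which the 3 kinds of material dominate. For Ramp2 they were Tspan7 (r = 1.0 after rounding), Nkd1 and Adgrf5 (0.999 each), and for Calcrl Ripply3, Aard (0.998 each) and Kank4 (0.997). Adgrf5, an adhesion receptor of lung, had 1293 ± 266 and 606 ± 211 scaled CPM in propranolol and untreated lung, 1540 ± 43.8 and 2242 ± 154 in the monocyte libraries, and under 1 in CD4 T cells, the same order as Ramp2. For Ramp1 they were Them6 (0.972), Cnr2 (0.940), a cannabinoid receptor of immune cells, and Abcg3 (0.939). For Ramp3 they were Emd (0.990), Gna13 (0.987), a G protein α subunit, and Spty2d1 (0.986). Gna13 had 761 ± 16.8 and 226 ± 6.27 scaled CPM in propranolol and untreated CD4 T cells. For Adm they were Hmox1 (0.950), the inducible haem oxygenase, Muc5b (0.949), a mucin, and Hk2 (0.949), a hexokinase. Hk2 had 43.6 ± 8.28 and 173 ± 66.5 scaled CPM in propranolol and untreated lung. Over the 18 lung and monocyte libraries alone, the top 3 shared 1 gene with this ranking for Ramp1, Calcrl and Adm and 0 for Ramp2 and Ramp3.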

How the data were processed

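The authors deposited raw, whole-number counts per gene in 2 tables, per the file headers, 1 for lung and monocyte libraries and 1 for CD4 T cells. Per the submitters' processing notes, STAR 2.7.9, featureCounts, Subread 2.0.3 and GRCm39 were used. The strand setting was not stated. Groups came from the titles. Each kind of material was fitted alone with edgeR 4.0.16 in R 4.3.3 (filterByExpr with a minimum count of 10, TMM, quasi-likelihood test, Benjamini-Hochberg adjustment over all genes, threshold 0.05), without a replicate block. Log2 changes are propranolol over untreated, with SE. For a difference between 2 kinds of material, the interaction contrast was taken from a joint fit of their 4 groups. The scripts were tested on simulated counts.

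The 5 genes and the lists were chosen with earlier results of these data known. Up to 8 genes of both lists were named per comparison, in order of p, besides the 3 genes most like each member. Calca, Calcr, Gpr182, Vipr1, Vipr2, Gnas, Furin, Adm2, Iapp and Ankrd37 were named after their values had been seen. So were Pam, Mme, Ece1, Arrb2 and Car9 outside the comparisons where the rule chose them. Nherf1 and Slc9a3r1 are 1 gene. The counts of the list include 1 gene whose values are not reported here. The results were recomputed with the size factors and test of DESeq2 1.42.0, limma-voom (limma 3.58.1), no filter or a mean of at least 5 CPM, the replicate block, each library left out, scaling on endothelium or resident cell markers, and the melanocyte level as a covariate. Library totals alone, summed close libraries and the T cell covariate were added after the data had been seen. Counting intervals and floors cover counting error only.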

Additional observations from a re-analysis of the deposited data

Results flagged for a closer look

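A library that stood apart from its group was found in 11 of 158 groups of 4 or 5 libraries over 27 genes, where chance gives about 1 in 20. Among the 5 genes of the axis these were Ramp1 in propranolol lung replicate 5 (13.8 scaled CPM, the others 19.6 to 20.5), Ramp2 in propranolol CD4 T cell replicate 1 (0.0537, the others 0, which is 2 counts against none) and Ramp3 in propranolol monocyte replicate 1 (35.6, the others 30.8 to 31.2). The rest were genes of the 2 lists: Slc2a1 in untreated monocyte replicate 4 (88.6, the others 98.9 to 99.3) and propranolol CD4 T cell replicate 4 (45.6, the others 53.4 to 54.7), Arrb2 in untreated CD4 T cell replicate 2 (158), Pam in propranolol CD4 T cell replicate 2 (11.8), Ece1 in untreated CD4 T cell replicate 4 (53.7), Egln3 in propranolol lung replicate 5 (3.30) and untreated lung replicate 2 (46.3), and Calcr, the calcitonin receptor, in untreated lung replicate 2 (0.196).

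Calcrl and Ramp2 went opposite ways in the 2 kinds of material, every propranolol lung above and every propranolol monocyte library below its untreated group, with a difference of log2 changes, monocyte libraries minus lung, of -1.63 for Calcrl and -1.51 for Ramp2. Adm did so between CD4 T cells and lung (4.17). These 3 differences were not tested, since the genes were selected on these changes.

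For list genes the difference was tested by the interaction contrast (edgeR, adjusted over all genes). Monocyte libraries minus lung, it was -2.18 for Gpr182, -2.04 for Vipr2, -1.69 for Vegfa, -1.39 for Mme, -1.38 for Arrb1, -1.14 for Ece1, -0.95 for Pam, -0.86 for Arrb2, -0.86 for Vipr1 and -0.37 for Pfkfb3, and 2.96 for Car9, 2.34 for Slc2a1, 2.19 for Ldha, 1.61 for Bnip3 and 0.43 for Gnas. CD4 T cells minus lung, it was -3.05 for Vipr2, -3.03 for Vipr1, -2.52 for Gpr182, -1.77 for Arrb2, -1.21 for Arrb1, -0.80 for Pam, -0.74 for Pdk1 and -0.72 for Ece1, and 3.86 for Ndrg1, 3.80 for Egln3, 3.11 for Slc2a1, 2.81 for Ldha, 2.18 for Vegfa, 2.09 for Furin, 1.98 for Car9, 1.88 for P4ha1, 1.34 for Bnip3 and 1.33 for Gnas. Car9 was lower with propranolol in both CD4 T cells and lung, so its positive difference is a smaller fall in CD4 T cells. For Calca the fitted value was 11.8, which depends on the prior count because the untreated CD4 T cells had 0 counts, and is no bound.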

How the results depend on the processing

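Of 252 values of the 5 genes under the alternatives, 227 moved by less than the spread between replicates, 25 moved by more and 0 reversed a call. Without a call, Adm in the monocyte libraries and Calcrl in CD4 T cells changed sign under the scalings given below. Scaled on endothelium markers, the lung log2 changes were 0.0487 for Ramp1, 0.0380 for Ramp2, -1.18 for Ramp3, 0.16 for Calcrl, -3.08 for Adm, -0.20 for Arrb2, -0.31 for Pfkfb3, -0.44 for Pam, -0.0789 for Mme and -0.14 for Ece1, with 12 list genes called. On resident cell markers they were 0.13, 0.11, -1.12, 0.23, -3.00, -0.12, -0.24, -0.37, -0.00559 and -0.0596 in the same order. With the melanocyte level as a covariate, lung had 2594 genes called in place of 13189 and 1 list gene, with Ramp2 at 0.40 and Ramp3 at -0.66. The melanocyte ranges of the 2 lung groups do not overlap, so this covariate and the treatment are hard to tell apart.

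In the monocyte libraries endothelium scaling gave 12260 calls in place of 5553 and 18 list genes, with Ramp2 at -0.23, Ramp3 at 0.66, Calcrl at -0.27, Adm at 0.24, Arrb1 at 0.0231, Ece1 at 0.12, Arrb2 at 0.33 and Furin at 0.33. Close libraries summed gave 1377 calls and 5 list genes, on 2 libraries a group. With the T cell level as a covariate Ramp1 was 0.13 and Furin 0.0412. Leaving out 1 library gave -0.0474 to 0.0694 for Gnas and 4414 to 5113 calls. In CD4 T cells endothelium scaling gave -0.26 for Ramp1, 7.64 for Ramp3, 0.67 for Calcrl, 2.52 for Adm and 0.32 for Pam, but Pecam1 alone made up 80.7% of the endothelium marker counts there with propranolol and 68.9% untreated. Library totals alone gave -1.19, 6.70, -0.26 and 1.59 for the same 4 genes of the axis and -0.21 for Ece1. Library totals alone put Furin in lung at 0.0372.

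The share of calls that were higher was 50.1% in lung (11.01%, 13.5% and 63.4% with endothelium, resident cell and totals scaling), 47.1% in monocyte libraries (95.4% and 60.1% with endothelium and totals scaling, 29.7% with close libraries summed) and 50.2% in CD4 T cells (81.4% and 26.4% with endothelium and totals scaling). The labels do not say whether the replicate numbers pair the libraries, and the correlations of same-numbered deviations do not settle it. They were -0.145 to 0.695 in lung, -0.675 to -0.462 in monocyte and -0.099 to 0.137 in CD4 T cell libraries. The replicate block gave 3544 calls in the monocyte libraries and kept all 45 named values on their side. The causes of these shifts were not tested. The ranking of like genes changed with the pseudocount: at 0.1, 0 to 3 of the top 3 were shared.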
